A study of Mus musculus with 2 samples.

Results

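The Polycomb complex genes described here are Ezh1, Ezh2, Eed and Suz12, which encode the core of Polycomb repressive complex PRC2, and Ring1, Rnf2, Bmi1, Cbx2, Cbx7 and Cbx8, which encode subunits of PRC1. They were chosen by name, as 10 of 22350 protein-coding genes of GENCODE mouse release M1 on chromosomes 1 to 19 and X (build mm9), and all 10 names matched the annotation. For each gene, every DNase I hypersensitive site (DHS) that overlapped the gene or the 50 kb on either side was taken. PRC2 methylates histone H3 on lysine 27, a mark of silenced chromatin. PRC1 ubiquitinates histone H2A, and its CBX subunits bind the mark that PRC2 leaves. In B cells, EZH2 is best known for its role in the germinal centre reaction and BMI1 for repression of the cell cycle inhibitor locus Cdkn2a.

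The series mapped accessible chromatin in B cells from spleen of C57/Bl6 mice that were 8 weeks old, Trp53+/+ and mock-treated, meaning not irradiated. The cells were taken by magnetic selection for the surface marker B220, nuclei were digested with DNase I, which cuts open chromatin more readily than chromatin packed in nucleosomes, and sites rich in cuts were called as DHS. There was 1 DNaseI library and 1 input library, both with the same labels, and no replicates, so every value below describes this one digest and no difference could be tested. In all, 47542 DHS were listed, each with a position and a score from the authors' peak caller, ranging up to 619 with a median of 32.65.

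The scale of the score is not stated, and it is used here only to compare DHS within the list. No read counts were at hand, so the depth is unknown, and a missing DHS means only that none was called. Intervals are exact 95% intervals and cover counting error only. The labelled cell type was checked on marker genes by DHS at their promoters, from 5 kb before to 2 kb after any annotated transcription start. All 10 B cell markers had one, with a DHS over a protein-coding start in 10 of 10. The same window held a DHS at 2 of 10 T cell markers (Cd5 and Gata3), 5 of 8 myeloid markers and 2 of 6 erythroid markers, beside 57.0% of all protein-coding genes. The myeloid share in this window was 62.5% (24.5 to 91.5%), and within 1 kb 3 of 8 (37.5%, 8.52 to 75.5%), against 53.7% of all genes. A protein-coding start was covered at 1 gene of each of these lists, against 45.1% of all genes. The part of other cells in the DHS of the Polycomb genes was not tested.

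All 10 Polycomb genes carried at least 1 promoter DHS in the window from 5 kb before to 2 kb after a start (100%, 69.2 to 100%). The same held for 57.0% of all protein-coding genes and for 85.5% of the 8698 genes with a CpG-rich promoter. CpG-rich here means at least 55% GC and at least 0.6 of the CpG count that base composition predicts, over 1000 bp centred on the first protein-coding start, and 9 of the 10 Polycomb genes were of this kind. Within 1 kb of a start, all 10 genes again had a DHS, against 53.7% of all and 84.5% of CpG-rich genes. A DHS lay over some protein-coding start in 10 of 10 genes, against 45.1% of all and 72.0% of CpG-rich genes. The first protein-coding start, the one farthest upstream, was covered in 8 of 10 genes (80%, 44.4 to 97.5%), against 40.7% of all and 67.2% of CpG-rich genes. Each of these intervals for the members contained the share of the CpG-rich genes. Bmi1 and Cbx7 were the genes with an uncovered first start.

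The scores of the promoter DHS differed widely between the 10 genes. The highest score within 1 kb of a start was 349.95 at Eed, 162 at Rnf2, 149 at Ezh2, 129.5 at Cbx8 and 97.2 at Suz12. It was 94.8 at Cbx7, 75.6 at Ezh1, 70.5 at Bmi1, 66.5 at Ring1 and 52.2 at Cbx2. The median over the 10 genes was 96.0, beside a median of 113 with quartiles at 74.8 and 162 for CpG-rich genes with such a DHS. Eed therefore lay above 97.4% of those genes, and Cbx2 above 14.2%. Without replicates it cannot be said which neighbours in this order differ.

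**Figure D1:**
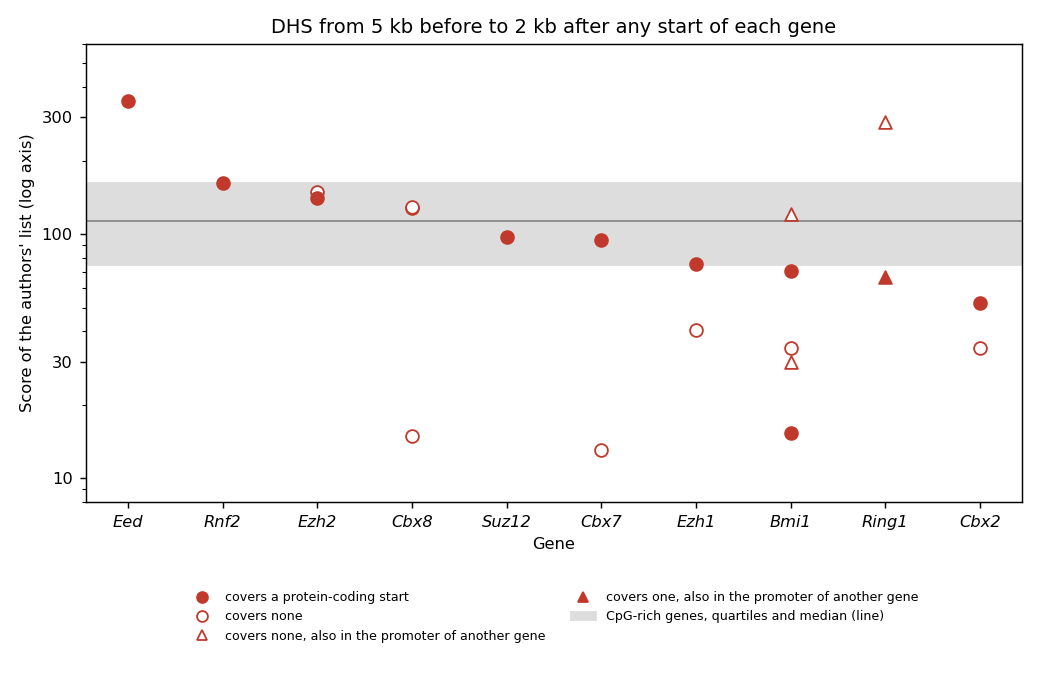
Score (log axis) of every DHS from 5 kb before to 2 kb after any start of each gene, in the order of the highest score within 1 kb. Filled symbols cover a protein-coding start, triangles also lie in the promoter of another gene, and the grey band with its line gives the quartiles and median (74.8, 113 and 162) of the highest score at CpG-rich genes; Eed stands at 349.95 and Cbx2 at 52.2, while the triangles at 286 for Ring1 and 121 for Bmi1 cover no start of theirs.

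Among the PRC2 core genes, Eed had the promoter DHS with the highest score. EED is the subunit that recognises methylated lysine 27 and stimulates the enzyme. Its DHS (chr7:97128224-97130391) was 2168 bp wide and covered the only protein-coding start of the gene, reaching 898 bp before and 1269 bp after it. Its score exceeded that of 99.5% of all DHS in the list. Ezh2, the gene of the main H3 lysine 27 methyltransferase, carried a pair of promoter DHS 95 bp apart, with scores of 140.5 over the first start and 149 just inside the gene. The protein-coding start of Ezh2 farthest downstream, at chr6:47527659, lay 15359 bp from the nearest DHS, in sequence of 38.2% GC.

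Suz12 encodes the subunit that holds PRC2 together. Its start was covered by a DHS of 1997 bp (chr11:79805729-79807725) with a score of 97.2, above 38.9% of CpG-rich genes. Ezh1, the gene of a second methyltransferase that is the more prominent one in non-dividing cells, had 3 protein-coding starts close together, at chr11:101087777, 101087764 and 101087740. All 3 were covered by a DHS of 1226 bp with a score of 75.6. A further Ezh1 promoter DHS, with a score of 40.5, covered no protein-coding start and lay 13076 bp from the first. All 4 PRC2 core genes thus had a DHS on the first start, with scores of 75.6 to 349.95.

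The 150 bases before the covered starts of Eed, Ezh2 and Suz12 are shown because these genes had unlike scores and unlike numbers of CG in these bases. All sequences are from build mm9, written 5′ to 3′ along the strand of the gene unless stated, and capitals mark CG dinucleotides.
Eed (chr7:97129494-97129643, - strand): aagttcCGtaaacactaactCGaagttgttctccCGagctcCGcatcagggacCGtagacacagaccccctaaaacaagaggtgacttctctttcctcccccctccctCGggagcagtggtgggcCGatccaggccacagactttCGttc
Ezh2 (chr6:47545341-47545490, - strand): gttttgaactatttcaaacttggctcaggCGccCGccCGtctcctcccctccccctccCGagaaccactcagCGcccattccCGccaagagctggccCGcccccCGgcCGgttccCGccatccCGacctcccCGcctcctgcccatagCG
Suz12 (chr11:79806458-79806607, + strand): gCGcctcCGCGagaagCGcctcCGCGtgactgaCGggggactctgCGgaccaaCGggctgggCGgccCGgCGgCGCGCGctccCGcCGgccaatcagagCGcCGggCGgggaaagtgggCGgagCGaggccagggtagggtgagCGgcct

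Eed, with the highest score, had the fewest CG dinucleotides of the 3 stretches, 8 in 150 bases at 56% GC. Ezh2 had 13 and Suz12 had 23, at 68.7% and 77.3% GC. This order held for the 150 bases only. Over 1000 bp centred on the start, Eed had 0.939 of the predicted CpG count, Ezh2 0.924 and Suz12 0.876, at 61.7%, 63.5% and 70.9% GC. None of the stretches overlapped an annotated exon. An E2F word (TTTCCCGC or TTTGGCGC, the consensus of the cell cycle factors of that family) lay in the central 300 bp of the Eed DHS. It is shown with the word in capitals because it was the only E2F word found in the centre of a promoter DHS of the 10 genes. The stretch is on the plus strand, opposite to Eed, inside an Eed exon.
Eed E2F word (chr7:97129285-97129314, + strand): gggcgggcggtTTTCCCGCcgccctctcga

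Among the PRC1 catalytic genes, Rnf2 had the highest score over a start. RNF2, also called RING1B, is the ubiquitin ligase that modifies histone H2A in most PRC1 complexes. Its only annotated start was covered by a DHS of 1728 bp (chr1:153346985-153348712) with a score of 162, above 74.9% of CpG-rich genes. Its paralogue Ring1 was covered at the start by a DHS of 1521 bp with a score of 66.5, above 20.4% of CpG-rich genes. A DHS with a score of 286 (chr17:34163815-34165486) stood 1509 bp farther upstream of Ring1, and lay also in the promoters of H2-Ke6, Rxrb and Mir219-1. The Ring1 start region and its upstream neighbourhood therefore shared their DHS with other genes.

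Bmi1 encodes the PCGF subunit that pairs with RING1 or RNF2 and stimulates the ligase. It had 5 promoter DHS and 6 protein-coding starts. The first start, at chr2:18598645, was outside every DHS, 718 bp before the nearest one, although its surroundings had 73.7% GC and were CpG-rich. The next start, 18599434, was covered by a DHS of 938 bp (chr2:18599363-18600300) with a score of 70.5, which reached only 71 bp before the start and 866 bp after it. A DHS with a score of 15.3 covered the starts at 18601999 and 18602001. The remaining starts, at 18602621 and 18602734, lay 150 and 37 bp before a DHS with a score of 34.25. The promoter DHS of the neighbour Commd3, upstream of Bmi1, had scores of 121 and 30.02, so that the highest score in the wide promoter window of Bmi1 belonged to a DHS shared with that gene.

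The stretches before the Rnf2 start and before the uncovered and the covered Bmi1 starts are shown for comparison, again with CG in capitals.
Rnf2 (chr1:153347954-153348103, - strand): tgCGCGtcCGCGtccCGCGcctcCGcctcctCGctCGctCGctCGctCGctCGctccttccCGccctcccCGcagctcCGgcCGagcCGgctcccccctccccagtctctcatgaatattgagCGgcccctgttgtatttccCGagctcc
Bmi1, first start, not covered (chr2:18598495-18598644, + strand): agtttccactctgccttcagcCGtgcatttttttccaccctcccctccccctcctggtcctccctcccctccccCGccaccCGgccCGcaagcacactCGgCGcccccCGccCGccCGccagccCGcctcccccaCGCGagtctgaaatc
Bmi1, covered start (chr2:18599284-18599433, + strand): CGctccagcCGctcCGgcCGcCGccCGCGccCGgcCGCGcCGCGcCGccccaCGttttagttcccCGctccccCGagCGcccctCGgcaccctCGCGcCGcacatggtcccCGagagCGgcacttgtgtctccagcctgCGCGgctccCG

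The stretch before the covered Bmi1 start had 26 CG dinucleotides at 79.3% GC, against 12 at 70.7% before the uncovered one. Rnf2 had 20, many of them in a run of ctCG repeats. Over 1000 bp centred on the start, both Bmi1 starts were CpG-rich. The covered one had 65% GC and 0.976 of the predicted CpG count, and the uncovered one 73.7% and 0.986. Rnf2 and Bmi1 shared the YY1 word AANATGGCG in the centre of the DHS over the start. YY1 is the mammalian relative of the fly factor that recruits Polycomb proteins. Both occurrences are shown on the plus strand with the word in capitals. That of Rnf2 lay inside an Rnf2 exon, on the strand opposite to the gene, with the base nearest the start at offset 18. That of Bmi1 overlapped no exon.
Rnf2 YY1 word (chr1:153347917-153347946, + strand): gccgccgcacAATATGGCGagtctcggctt
Bmi1 YY1 word (chr2:18599696-18599725, + strand): gatggctggtAAGATGGCGgttcccagttg

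Among the CBX genes, all 3 had a DHS over a protein-coding start, at scores of 52.2 for Cbx2, 94.8 for Cbx7 and 128 for Cbx8. The CBX proteins are alternative readers of methylated lysine 27 and give PRC1 complexes different properties. Cbx7 was the only one of the 10 genes whose first start was not CpG-rich (51.3% GC, and 0.456 of the predicted CpG count). Its 2 outermost starts, at chr15:79801549 and 79801548, lay 20094 and 20093 bp from the nearest DHS. The DHS over Cbx7 starts (chr15:79761742-79764412, score 94.8) lay inside the gene and covered 4 protein-coding starts, at 79764329, 79763082, 79763069 and 79762970. The 3 inner ones were CpG-rich, with 61.2% to 61.5% GC. Both promoter DHS called at Cbx7, the other with a score of 13.1, thus lay at its inner starts.

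**Figure D2:**
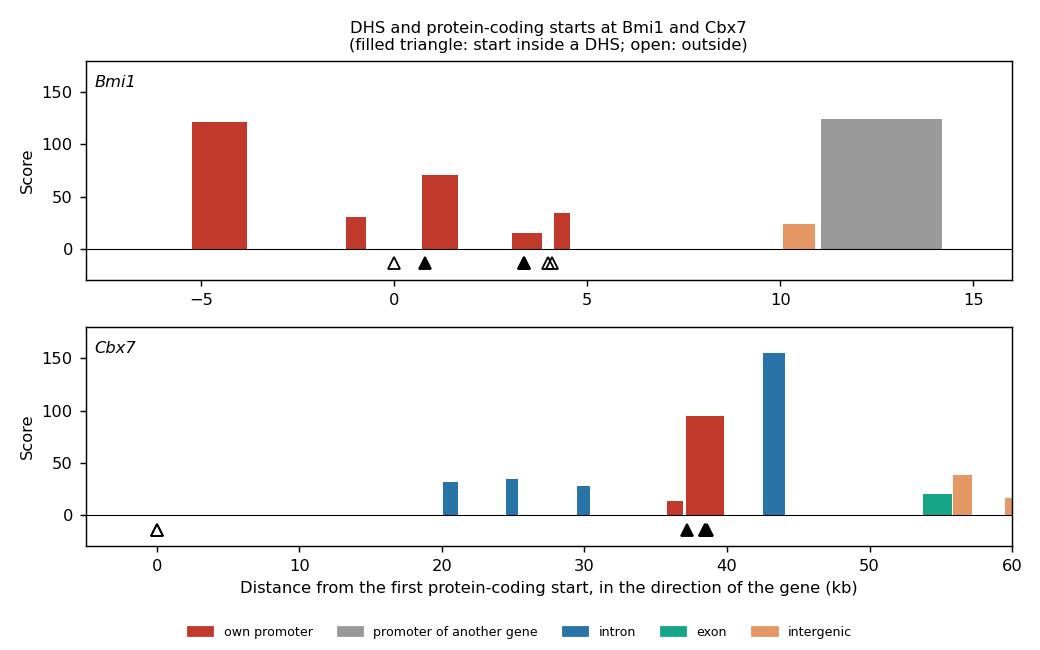
DHS (bars, height is the score) and protein-coding starts (triangles, filled when inside a DHS) at Bmi1 and Cbx7, by distance in kb from the first protein-coding start in the direction of the gene; colours give the class of each DHS. At Bmi1 the first start falls in the gap of 1443 bp between 2 promoter DHS, and at Cbx7 the first DHS after the first start begins 20094 bp into the gene.

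The stretches before the first, uncovered Cbx7 start and before the outermost covered one are shown because they differ in the number of CG, as do those of Bmi1.
Cbx7, first start, not covered (chr15:79801550-79801699, - strand): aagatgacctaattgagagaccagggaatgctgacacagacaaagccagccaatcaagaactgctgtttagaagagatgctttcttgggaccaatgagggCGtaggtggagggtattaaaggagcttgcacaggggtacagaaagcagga
Cbx7, covered start (chr15:79764330-79764479, - strand): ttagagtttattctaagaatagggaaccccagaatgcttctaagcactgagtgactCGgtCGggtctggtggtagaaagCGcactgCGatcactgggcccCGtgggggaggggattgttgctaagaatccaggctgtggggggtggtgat

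The uncovered Cbx7 stretch held 1 CG at 48% GC and the covered one 5 at 54% GC. The covered start shown, 79764329, was itself not CpG-rich over 1000 bp (52.1% GC, and 0.507 of the predicted CpG count), unlike the 3 inner ones. Inside Cbx7, 4 intron DHS and 1 exon DHS accompanied the promoter DHS. The intron DHS with the highest score (chr15:79757461-79759025, 155) exceeded the score of the DHS over the starts, and its central 200 bases, on the plus strand, held 15 CG at 61% GC. The other 3 intron DHS had scores of 27.7, 34.04 and 31.1. Beyond the 3′ end of Cbx7, an intron DHS of Apobec3, the gene of an antiviral cytidine deaminase, had a score of 249, and a DHS at the Apobec3 promoter one of 301.
Cbx7 intron DHS, centre (chr15:79758144-79758343, + strand): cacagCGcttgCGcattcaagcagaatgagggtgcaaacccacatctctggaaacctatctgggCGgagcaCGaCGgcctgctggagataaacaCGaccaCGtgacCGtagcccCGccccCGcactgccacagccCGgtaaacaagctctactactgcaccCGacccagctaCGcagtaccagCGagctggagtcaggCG

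Cbx2 and Cbx8 are neighbours on chromosome 11, with first starts 18.007 kb apart and pointing toward each other. Cbx2 had the lowest score of the 10 genes. Its DHS over the start (chr11:118883589-118884285, 697 bp, score 52.2) ended 9 bp after the start, and a DHS with a score of 34.2 followed after a gap of 136 bp. Cbx8 had a DHS of 1098 bp over its first start with a score of 128, and a wider one of 3305 bp with a score of 129.5 began 83 bp farther upstream. Another Cbx8 promoter DHS had a score of 14.9. The second protein-coding start of Cbx8, at chr11:118900110, was uncovered and lay 1127 bp from the nearest DHS. The bases before the Cbx2 start are shown because they were rich in CG (20 in 150 bases, 72.7% GC) while the score was low.
Cbx2 (chr11:118884126-118884275, + strand): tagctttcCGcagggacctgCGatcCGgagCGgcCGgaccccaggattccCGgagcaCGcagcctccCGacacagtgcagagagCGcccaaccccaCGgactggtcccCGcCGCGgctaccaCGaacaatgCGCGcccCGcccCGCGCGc

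Upstream of Cbx8, 9 intergenic DHS stood close together. They spanned 13.9 kb (chr11:118907428-118921340), covered 79.9% of it and had widths of 341 to 3071 bp. Their scores were low, from 8.77 to 53.9 with a median of 22.3. Against DHS whose width was within 20% of theirs, 8 of the 9 had a score under the median, and their median percentile was 12.2. The span had 55.8% GC, and the median GC of the 9 DHS was 55.3%, against 47.2% for all distal DHS. Together with the Cbx8 promoter and the 2 DHS after the Cbx8 gene, the 9 formed a cluster of 14 DHS with gaps under 10 kb, 26.2 kb long and 70.6% covered.

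**Figure D3:**
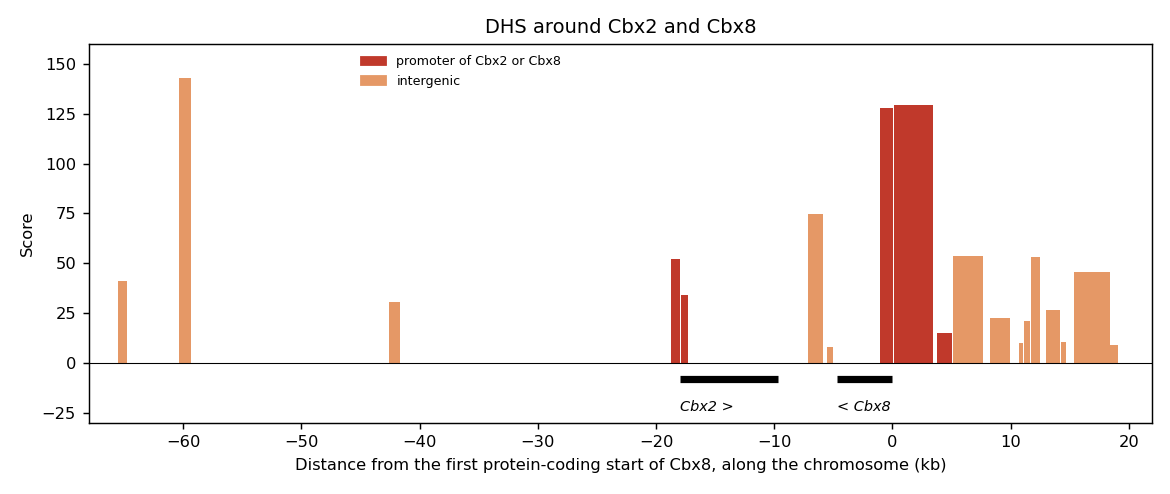
DHS around Cbx2 and Cbx8 by distance in kb along the chromosome from the first start of Cbx8; bar height is the score, bar width that of the DHS, and black bars mark both genes. The intergenic DHS to the right of Cbx8 have widths of 341 to 3071 bp and scores of 53.9 at most.

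The windows of all 10 genes, with 50 kb on either side, held 110 different DHS in 1186 kb. The windows of Cbx2 and Cbx8 overlapped and shared 17 of these, so both genes partly show the same DHS. The pooled density was 9.27 DHS per 100 kb (7.62 to 11.2). The median over the 10 windows was 9.07 per 100 kb, against 3.38 over all protein-coding genes and 4.74 over CpG-rich genes, which were measured in the same way. By gene, the windows held 17 DHS at Ezh1, 5 at Ezh2, 10 at Eed, 10 at Suz12 and 17 at Ring1. They held 3 at Rnf2, 10 at Bmi1, 19 at Cbx2, 14 at Cbx7 and 22 at Cbx8. Rnf2 had the lowest density, 2.28 per 100 kb (0.471 to 6.67), and Cbx8 the highest, 21.02 (13.2 to 31.8).

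**Figure D4:**
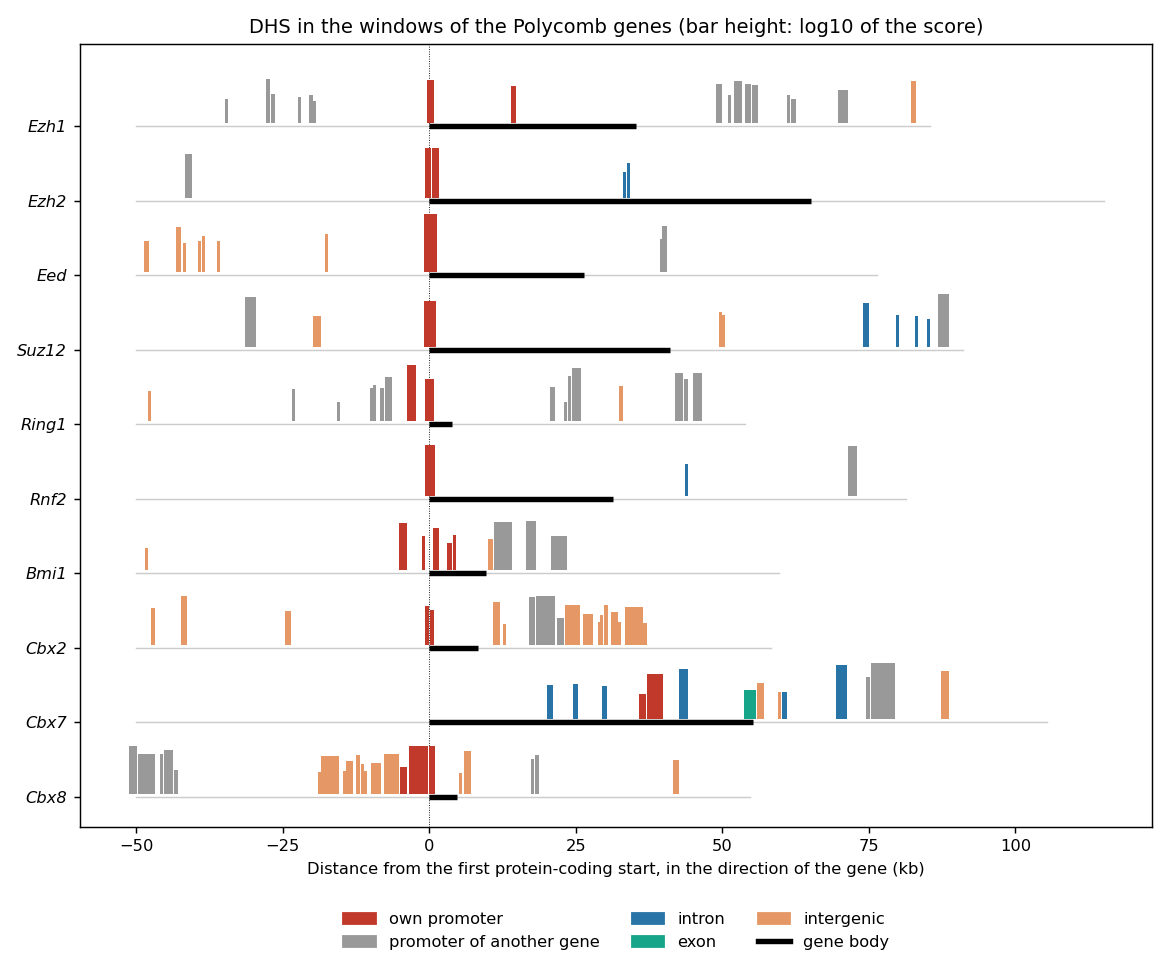
Position of each DHS in the 10 gene windows, in kb from the first protein-coding start in the direction of the gene; bar height is the log10 of the score and colour the class (own promoter, promoter of another gene, exon, intron or intergenic), and the black line is the gene body. The windows range from 3 DHS at Rnf2 to 22 at Cbx8.

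The number of neighbouring genes differed between the windows. Ezh1 had 7 starts of other protein-coding genes in its window and Ring1 had 5, and at both genes most DHS were at promoters of other genes (14 of 17 and 13 of 17). By contrast, Cbx2 and Rnf2 each had 2 other starts, with 19 and 3 DHS. The promoters at Ring1 included those of H2-K1 and H2-K2, which belong to a multigene family, and whether reads could be told apart between its members was not tested. Compared with CpG-rich genes that had the same number of other coding starts, 9 of the 10 genes had a density above the median. The exception was Rnf2, at percentile 22.4. Cbx2 and Cbx8 count separately here though they share 17 DHS, and Cbx7 is itself not CpG-rich. The part of neighbouring genes in the density was not tested. Ezh2, with 0 other starts in its window, stood at percentile 64.5, Eed at 88.7, and Cbx2 and Cbx8 at 99.6 and 99.8.

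Of the 110 DHS, 21 lay in the promoter of the gene itself and 43 in that of another gene only, while 32 were intergenic, 13 in introns and 1 in an exon. The 46 DHS outside any promoter had a median score of 25.9, close to the 24.3 of all distal DHS, and a median width of 784.5 bp, against 602 bp. Their density by gene had a median of 3.44 per 100 kb, against 0.873 over all protein-coding genes. Cbx2 and Cbx8 shared most of their distal DHS, and the median was 1.93 without Cbx8 and 1.87 without both genes. It was highest at Cbx2, Cbx8, Cbx7 and Eed (12.9, 11.5, 6.44 and 5.54) and lowest at Ezh1 and Rnf2 (0.739 and 0.761). All 7 distal DHS of Eed lay upstream of the gene, and the one with the highest score (94.4) was at chr7:97171836-97172638. Ezh2 had 2 distal DHS, both in its own introns, with scores of 30.9 and 13.4. At Suz12, 4 of the 7 distal DHS were in introns of the neighbour Crlf3.

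How far the promoter DHS reached to either side was measured from the outermost covered start. The median reach was 667.5 bp upstream and 924.5 bp downstream, and it was longer downstream in 8 of 10 genes. In 6263 CpG-rich genes with a covered start the medians were 684 and 815 bp, and 63.3% were longer downstream. Ezh2 (655 against 312 bp) and Cbx2 (687 against 9 bp) were the exceptions among the 10. Both have a further DHS directly downstream, and with DHS closer than 500 bp merged 9 of 10 genes were longer downstream, all but Cbx8, against 59.4% of CpG-rich genes.

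The other genes of the Polycomb pathway were described in the same way. Of 32 such genes, 30 had a promoter DHS (93.75%, 79.2 to 99.2%) and 25 had one over a protein-coding start. The 2 without were Scml2 and Asxl3, which encode a PRC1-associated SCM protein and a partner of the H2A deubiquitinase BAP1. The highest scores were at Rbbp4 (381) and Jarid2 (211), of PRC2, and at Pcgf2 (374), the paralogue of Bmi1. The lowest were at Rybp (34.2), Bcorl1 (36.2) and Cbx6 (40.9). The median score within 1 kb was 104, beside 96.0 for the 10 genes. Among the 10 genes, the median was 123 for the PRC2 core, 70.5 for Ring1, Rnf2 and Bmi1, and 94.8 for the CBX genes.

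Lists of other regulators had a promoter DHS at every gene in the wide window, and the ranges of their scores overlapped that of the 10 genes. All 12 genes of a list labelled COMPASS, of KMT2 family members and subunits of the COMPASS complexes that methylate H3 lysine 4, had a promoter DHS, with a median score within 1 kb of 133. All 9 genes of DNA methylation and demethylation had one, with a median of 87.1. All 14 transcription factor genes of B cell identity had one, with a median of 177.5. A protein-coding start was covered at 9 of 12, 7 of 9 and 13 of 14 genes of these lists, beside 10 of 10 Polycomb genes. Median distal density was 6.41 per 100 kb for the B cell factors, 3.44 for the 10 Polycomb genes, 2.17 for DNA methylation, 1.80 for the other Polycomb genes and 1.29 for COMPASS. Without Cbx2 and Cbx8 the Polycomb median was 1.87, below that of DNA methylation, so that its place in this order rested on those neighbouring genes.

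**Figure D5:**
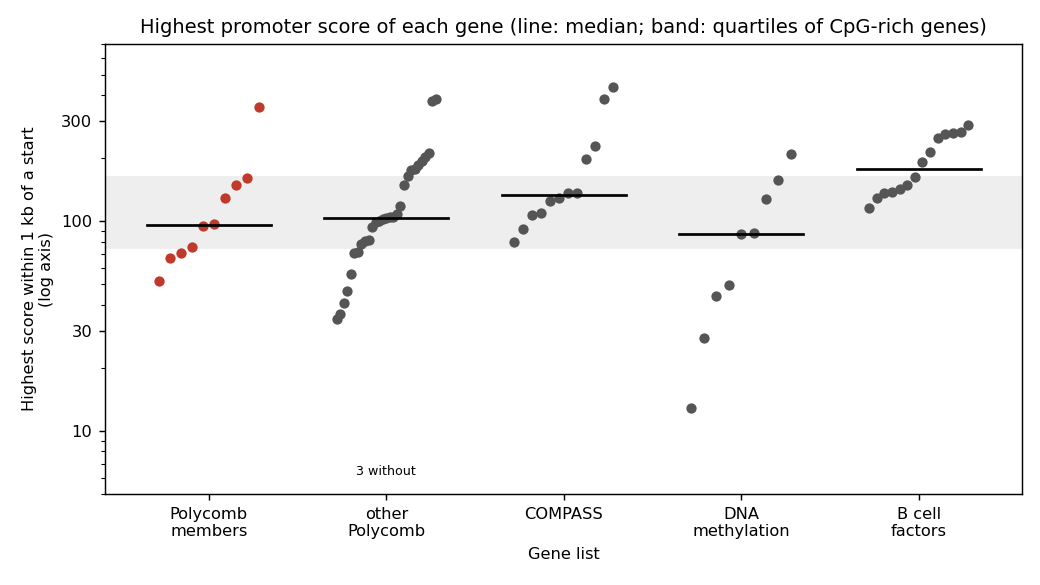
Highest score within 1 kb of a start (log axis) for each gene with such a DHS in the 10 Polycomb genes, the other Polycomb genes and 3 comparison lists; each point is a gene, the line its list's median and the grey band the quartiles of CpG-rich genes, and 3 other Polycomb genes without such a DHS are not drawn. The medians are 96.0, 104, 133, 87.1 and 177.5 for the 10 genes, the other Polycomb genes, COMPASS, DNA methylation and the B cell factors.

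Short sequence words were searched on both strands in the central 300 bp of the DHS. In the 21 own-promoter DHS, the GC box GGGCGG, a word bound by SP factors, was found in 9 (42.9%, 21.8 to 66.0%), against 31.2% of all promoter DHS. The CCAAT box CCAAT was found in 2, against 27.9%, and with whole DHS searched in 12 (57.1%), against 64.7%. The YY1 word was found in 2, against 2.29%, and with whole DHS again in 2 (9.52%), against 5.76%. The E2F words were found in 1, against 1.80%. The PU.1 word GAGGAAGT was found in 1, the DHS shared by Ring1 and H2-Ke6, against 2.95%, and the E-box CACGTG in 1, against 6.61%. The ETS word CCGGAAG was found in 0 of 21 (up to 16.1%), against 7.83%. The words for NRF1 (TGCGCATGC), CRE (TGACGTCA) and CTCF were also found in 0, against only 0.897%, 1.07% and 2.14%. In the central 300 bp, the members' intervals contained the share of all promoter DHS for every word named here, but with whole DHS searched the GC box (17 of 21, 58.1 to 94.6%) lay above the 55.3% of all promoter DHS. The own-promoter DHS had a median width of 1192 bp, against 941 bp for all promoter DHS. Of the 10 genes, 9 had a CpG-rich promoter, against 38.9% of all protein-coding genes. The part of width and of CpG content in the whole-DHS counts was not tested. None of the words spelled out here contains another, and neighbouring words can share a few bases.

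Placed around the outermost covered start of each gene, from 250 bp before to 50 bp after, the GC box was found at 7 of 10 genes, against 64.3% of covered starts of all genes. It was missing at Eed, Ezh1 and Cbx7. At Ezh2 it stood at offsets -118 and -54 within the stretch printed above, and at Suz12 at offsets -91, -47 and -34. Here 0 is the start base, and the offset is that of the word's first base in the direction of the gene. CCAAT was found at 5 genes, Eed, Suz12, Cbx2, Cbx7 and Cbx8, against 38.9%, and at Suz12 it lay at offset -61. The E2F word was found at Suz12 alone, at offset -219, against 3.36% of covered starts. The CRE and E-box words were found at Cbx8 alone, 1 of 10 genes each, against 3.76% and 10.6%. The ETS word was found at 0 of 10 genes, against 20.1%. These letters describe the sequence only.

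In the 46 distal DHS, the CTCF word was found in 2 (4.35%), against 4.61% of all distal DHS. CTCF is the insulator protein that anchors chromatin loops. The 2 DHS with the CTCF word were an intergenic DHS of the Ring1 window, with a score of 35.6, and an intron DHS of Cbx7, with a score of 34.04. Both CTCF words are shown in capitals at the end, on the strand that carries them. The E2F words were found in 1 (2.17%), against 0.497%, and with whole DHS searched in 4 (8.70%, 2.42 to 20.8%), against 1.16%, the distal DHS being wider than all distal DHS as given above. The p53 response element was searched as 20 bases without a spacer, with its core C and G bases fixed and at most 2 mismatches elsewhere. Forms with a spacer were not searched. The element was found in 0 of the 21 own-promoter and 0 of the 46 distal DHS, against 0.266% and 0.389% of all promoter and distal DHS. The count was also 0 when whole DHS were searched, against 1.05% and 0.990%.
Ring1 window CTCF word (chr17:34128947-34128976, - strand): gcctgtctgCCAGTAGAGGGCgccagatct
Cbx7 intron CTCF word (chr15:79776618-79776647, + strand): tcacactgaCCACCAGGTGGCgctaagttc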

How the data were processed

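Accessible chromatin of splenic B cells was measured in 1 DNaseI library, and the input library had no table of its own here. The authors deposited a list of peaks with a score for each, on mm9. The submitters' processing notes name BWA 0.6.2 and SAMtools. Peak names are of the MACS kind. The paper gives a MACS version and threshold for its ChIP-seq data. For the DNaseI list, the caller's version, settings and score scale are not stated.

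Peaks were overlapped (any overlap) with GENCODE M1 starts and genes, using Python 3.11.15 and numpy 2.4.6. Intervals are exact binomial (Clopper-Pearson) or Poisson (scipy 1.17.1). Overlap and word-search code was tested on simulated data. Members and lists were chosen with earlier results of these data known, and no test was made. Named were all 10 members; of the other Polycomb genes those without a promoter DHS, and the 3 highest and lowest scores; and neighbours at whose promoter a DHS lay. Genes that lost their DHS under an alternative (Kdm6b, Tet1, Tet3) and Scml4, Kdm2b and Bcor fall outside this rule and were chosen after their values were seen. Where neighbours were many, some are named and the rest counted. CTCF and p53 words are given by name, and 1 neighbour and 1 marker are not reported here. Alternatives changed the score threshold, promoter window, overlap rule, merging, starts, flank, reference start and word window. The alternatives without Cbx2 or Cbx8 and the search around covered starts were added after seeing the data.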

Additional observations from a re-analysis of the deposited data

How the results depend on the processing

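The count of 10 of 10 promoter DHS was the same with the score threshold, the 1 kb window, the peak centre, merged peaks and coding starts only. The density of 9.27 DHS per 100 kb fell to 4.97 for DHS at or above the median score and to 6.41 with DHS closer than 500 bp merged. It was 8.05 without the windows of Cbx2 and Cbx8, an alternative added after seeing the data. The densities of all and of CpG-rich genes are given for the main setting only, so the values of 4.97 and 6.41 have no like baseline here. The median of the highest promoter score was 125 in the wide window and 96.0 within 1 kb, since the DHS shared with neighbours of Ring1 and Bmi1 then drop out. Of 35 such list, position and density values under an alternative, 30 stayed close to the main value, within its interval where it has one, and 5 did not, the 3 above and the 2 distal densities below. Kdm6b had no DHS within 1 kb or by peak centre, Tet1 and Tet3 none at or above the median score, and Tet1 none with coding starts only. Of 22 word shares, 5 left the interval of the main share when whole DHS were searched. In own-promoter DHS the GC box went from 9 to 17, CCAAT from 2 to 12 and the E-box from 1 to 6 of 21. In distal DHS CCAAT went from 13 to 24 and the E-box from 2 to 8 of 46. Other counts rose within that interval, among them the GC box from 6 to 11 distal DHS. The GC box share (81.0%, 58.1 to 94.6%) then stood against 55.3% of all promoter DHS. The E2F words rose from 1 to 4 of 46 distal DHS (8.70%, 2.42 to 20.8%), within the interval of the main share, against 1.16% of all distal DHS. For both words, the share of all DHS lay outside the members' whole-DHS interval. In the search around covered starts, counted by gene and not by DHS, 3 of 11 word shares left the interval of the main share. They were the GC box (7 of 10 genes), CCAAT (5 of 10) and PU.1 (0 of 10). The median distal density of 3.44 per 100 kb was 1.93 without the window of Cbx8 and 1.87 without those of Cbx2 and Cbx8, also added after seeing the data. No paired analysis was possible because there was 1 DNaseI library and no group to pair. The unknown depth limits what a missing DHS can say.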

Other observations

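Among the other Polycomb genes, 3 had 9 promoter DHS each and were chosen for that after their values were seen. The highest score within 1 kb of a start was 175.6 at Scml4, of the SCM family, 105 at Kdm2b, the CpG-binding subunit of a variant PRC1, and 71.5 at Bcor, its partner, where it was 154 in the wide window from 5 kb before to 2 kb after a start. By comparison, the median number of promoter DHS was 2 for Ezh1, Ezh2, Eed, Suz12, Ring1, Rnf2, Bmi1, Cbx2, Cbx7 and Cbx8 and 2 for the other Polycomb genes.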
